A study of Mus musculus with 4 samples.

Results

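The CD4 and CD8 coreceptor genes Cd4, Cd8a and Cd8b1 were taken by symbol from a table of newly made RNA in mouse thymocytes, and they are 3 of its 24984 genes. The libraries came from CD4+CD8+ double positive (DP) thymocytes and were made by TTchem-seq, in which cells are given 4-thiouridine (4sU) briefly and the RNA that takes it up is fragmented chemically, captured and sequenced, so that introns are read along with exons. The study asked what loss of Tox4, an HMG-box protein that acts on transcription, does to transcription in these cells. WT libraries had the genotype Tox4;F/F, in which Tox4 carries loxP sites and no Cre is named, and cKO libraries had Tox4;F/F;Lck+, in which Cre is driven by the proximal Lck promoter, active from the DN3 stage on, and removes exons 4 to 6. Each group had 2 libraries. According to the methods, the mice were of C57BL/6 background, 6 to 8 weeks old and gender-matched littermates, and per the labels all cells stood for 0.5 h in fresh medium before 4sU.

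CD4 and CD8 are the coreceptors of the T cell receptor: they bind MHC class II and class I molecules, respectively, and bring the kinase LCK to the receptor. CD4 is a single chain, whereas CD8 on thymocytes is a pair of the α chain, encoded by Cd8a, and the β chain, encoded by Cd8b1. DP thymocytes make both coreceptors, and positive selection leaves cells that keep one of them, the CD4 or the CD8 lineage. The methods state that DP cells were purified from thymus with a kit of CD4 beads, that is, by the protein of 1 of the 3 genes, a step that does not remove CD4 single positive cells. That paragraph does not name TTchem-seq among its uses.

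The CD8 genes lie on chromosome 6 of GRCm38, Cd8b1 at 71322788 to 71337492 and Cd8a at 71373427 to 71379171, both on the plus strand and 35.934 kb apart. Cd4 lies on the minus strand of the same chromosome at 124864693 to 124888200. These spans run from first to last exon, introns included, and no other RefSeq gene overlaps any of them. RefSeq exons fill 54.5% of the Cd8a span (NM_001081110.2, 5 exons), 13.1% of that of Cd4 (10 exons) and 10.1% of that of Cd8b1 (6 exons).

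The promoter of Cd8a, the gene of the 3 that DESeq2 called between the groups, is shown. It is the window of 250 bases before and 50 bases after the start site, chr6:71373177-71373476 on the plus strand, from a table of RefSeq promoters (GRCm38.p6) in which 1 of the 3 genes was matched. Capitals mark 3 E-boxes (CANNTG, the motif of E proteins such as the products of Tcf3 and Tcf12) and 1 element of the form TGACNTCA, like that of cAMP-responsive factors, with no overlap between them.
Cd8a: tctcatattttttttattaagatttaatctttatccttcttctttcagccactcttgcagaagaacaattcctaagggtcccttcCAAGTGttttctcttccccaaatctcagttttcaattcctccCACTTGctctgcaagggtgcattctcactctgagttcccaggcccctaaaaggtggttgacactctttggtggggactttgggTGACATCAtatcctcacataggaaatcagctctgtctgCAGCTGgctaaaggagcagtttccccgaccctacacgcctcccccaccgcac
The E-boxes begin at -165, -123 and -2 relative to the start site, and the TGACNTCA match begins at -40. An E-box was present in 72.3% of 32851 RefSeq promoters of this length and TGACNTCA in 8.83%, with both strands searched. The RUNX letters TGTGGT were not in this window on either strand and were present in 16.8% of all promoters. The same held for the letters CTTTGA of TCF and LEF factors, which were present in 16.0% of all promoters, for the GATA factor letters AGATAA, present in 11.2%, and for the TATA box, written with its usual letters TATAAA, in 13.6%.

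The libraries held 38429786 to 48690591 fragments. Levels are given as CPM, the count scaled to the total of its library, and 11625 genes averaged at least 1 CPM. Replicates differed by far more than counting error, with a chi-square per degree of freedom of 40.7 in WT and 30.7 in cKO. The labels do not name the mouse of each library, while the reporting summary of the study speaks of biological replicates for its genomic assays. Xist, which is made from the inactive X chromosome, reached 172 CPM in WT replicate 1 against 2.36, 1.09 and 0 CPM in WT replicate 2, cKO replicate 1 and cKO replicate 2. These values go against the gender matching that the methods state. The coreceptor genes and the called genes of the lists and loci were therefore also fitted without WT replicate 1, as without each other library. Tox4 was at 74.0 and 70.3 CPM in WT and at 59.3 and 57.2 CPM in cKO. Its log2 fold change was -0.31 (SE 0.0998, DESeq2 adjusted p = 0.0453) over the whole span, in which the deleted exons are a part, so the value does not measure the deletion, and the call was lost with each library left out (adjusted p between 0.196 and 0.792).

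All 3 coreceptor genes were among the most highly transcribed genes of these cells. Per kb of span, which allows genes of different length to be compared, Cd8a had the highest level, at 86.7 and 110 CPM per kb in WT and 68.7 and 66.6 in cKO. Cd4 was at 26.4 and 30.4 CPM per kb in WT and 29.4 and 29.5 in cKO. Cd8b1 was at 24.2 and 29.5 CPM per kb in WT and 27.0 and 22.1 in cKO. The order Cd8a, Cd4, Cd8b1 per kb was the same in every library. Exons fill more of the Cd8a span than of the other spans, and whether reads over exons raise its level per kb was not tested. By CPM per gene, not scaled to length, Cd4 was highest in every library, and Cd8b1 was above Cd8a in cKO replicate 1. Per kb, Cd8a stood apart from the other genes in all 4 libraries, whereas the ranges of Cd4 and Cd8b1 over the libraries overlapped. Of the 11625 genes, 56 were higher per kb than Cd8a, 178 than Cd4 and 198 than Cd8b1.

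**Figure D1:**
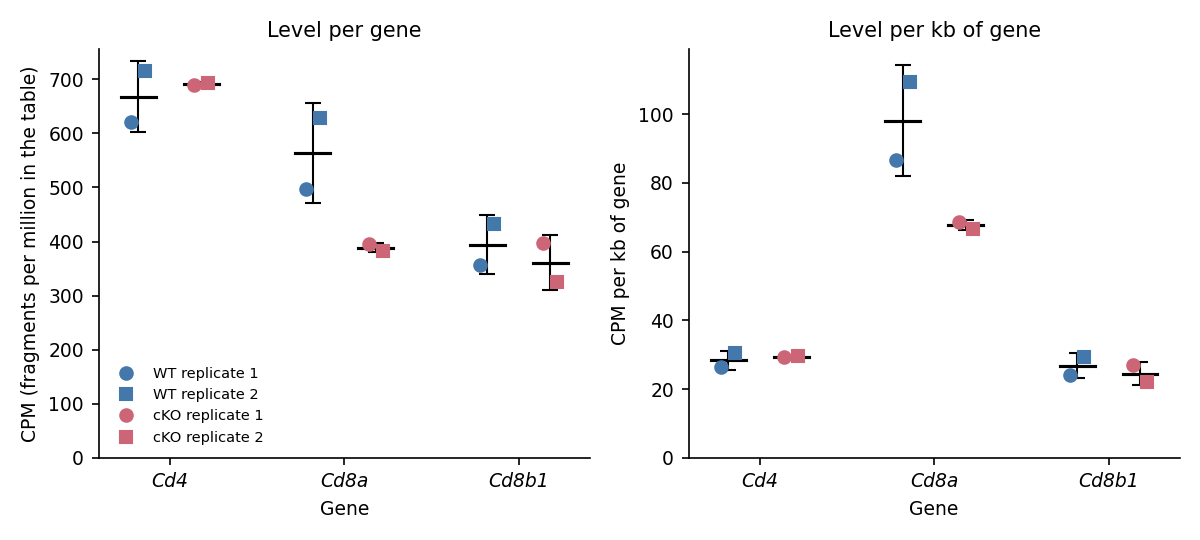
Level of Cd4, Cd8a and Cd8b1 in each library as CPM per gene (left) and CPM per kb of gene span (right). Points are libraries, bars the mean and its SD over 2 libraries; both cKO libraries of Cd8a lie below both WT libraries, whereas the groups overlap for Cd4 and Cd8b1.

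By DESeq2, Cd8a transcription was lower in cKO than in WT, while neither Cd4 nor Cd8b1 passed that test. In their main setting, edgeR and limma voom did not call Cd8a, as given below. The level of Cd8a was 498 and 629 CPM in the WT libraries and 395 and 383 CPM in the cKO libraries. The cKO libraries lay close together and below both WT libraries, which were further apart. The mean fell from 564 ± 92.8 to 389 ± 8.38 CPM (SD, n = 2 each). With DESeq2 fitted over all genes, the log2 fold change was -0.54 (SE 0.10, 95% interval -0.74 to -0.34), a fold change of 0.688 with an adjusted p of 1.21e-05. A gene was called where its adjusted p was below 0.05, it moved at least 1.2-fold and its CPM averaged 1 or more.

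By these criteria 1 of the 3 coreceptor genes was called, against 3.71% of all 11625 genes in either direction and 1.57% as decreased. Among genes averaging 100 CPM or more, as all 3 do, the shares were 7.41% and 3.71%. Both cKO libraries lay below both WT libraries in 24.0% of genes, Cd8a included. Among the 182 decreased genes Cd8a ranked 13th by adjusted p, 52nd by size of change and 8th by the level lost, 175 CPM.

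The call of Cd8a was not made by every test. With edgeR (quasi-likelihood) it had the same log2 fold change of -0.54 but an adjusted p of 0.108, and limma voom gave an adjusted p of 0.0998, so neither called it. edgeR called 0.0860% of genes as decreased, 10 in all. With other filters on low counts, tried after the data were seen, the edgeR adjusted p of Cd8a was 0.119 over genes averaging 0.1 CPM or more and 0.0887 over those averaging 1 or more, but 3.14e-15 with no filter, where edgeR estimated no difference in spread between genes. With DESeq2 it was called with each library left out in turn, at -0.71 without WT replicate 1, -0.35 without WT replicate 2, -0.55 without cKO replicate 1 and -0.52 without cKO replicate 2, with adjusted p from 2.85e-12 to 0.0425. The size of the decrease thus rested in part on WT replicate 2. The log2 difference between the WT replicates of Cd8a, 0.34, was exceeded by 3.14% of the 2293 genes averaging 100 CPM or more.

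Cd8b1, the gene of the CD8 β chain, was at 356 and 433 CPM in WT and at 397 and 325 CPM in cKO. Its groups overlapped, with the highest value in WT replicate 2 and the lowest in cKO replicate 2. The log2 fold change was -0.13 (SE 0.108, DESeq2 adjusted p = 0.668). Its 95% interval ran from -0.34 to 0.08. The estimate was 0.02 without WT replicate 2, 0.0012 without cKO replicate 2, -0.28 without WT replicate 1 and -0.27 without cKO replicate 1. The replicates of Cd8b1 lay 0.28 apart on the log2 scale in WT and -0.29 in cKO (replicate 2 against 1), and 2.35% of genes at this level had a larger gap in cKO.

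Cd4 was at 621 and 715 CPM in WT and at 690 and 694 CPM in cKO. Both cKO values lay between the WT values. The log2 fold change was 0.05 (SE 0.083, DESeq2 adjusted p = 0.881), with a 95% interval of -0.11 to 0.21. Leaving out WT replicate 1 turned it to -0.06, and leaving out WT replicate 2 gave 0.16.

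**Figure D2:**
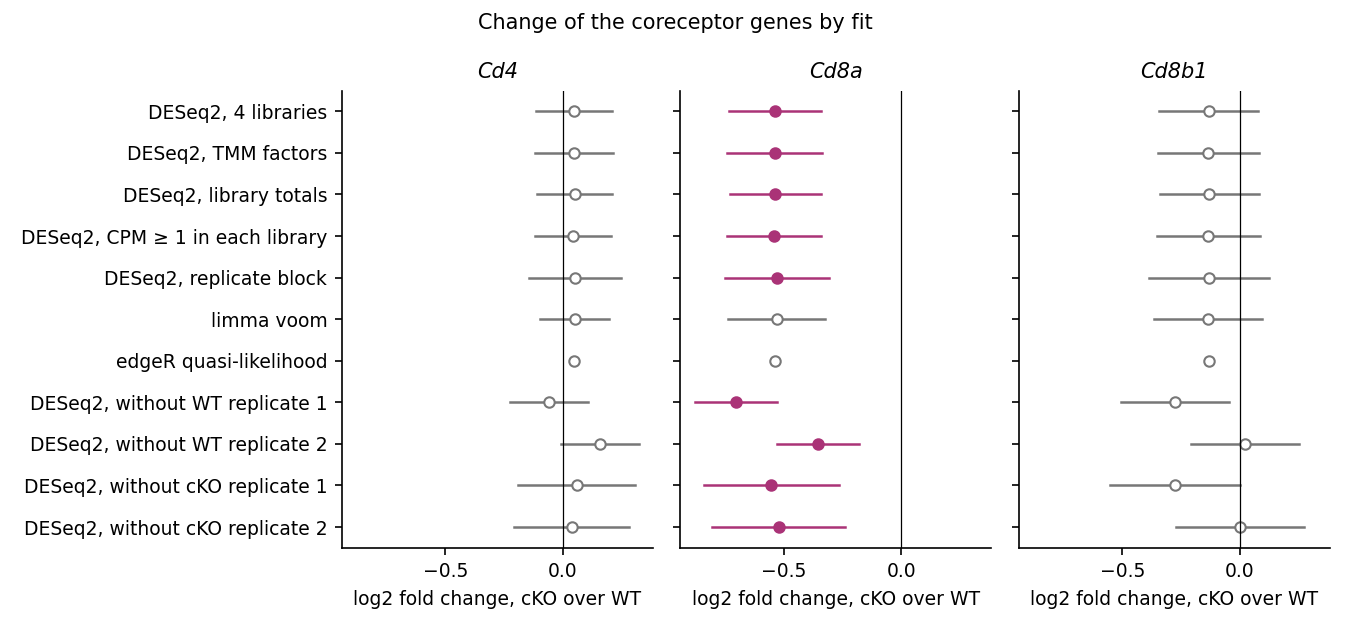
Log2 fold change of each coreceptor gene, cKO over WT, under 11 fits. Lines are 95% intervals of a normal distribution where the fit gives a standard error (edgeR gives none). They are too narrow for limma voom, which tests with a t distribution. Filled points were called; Cd8a was called by DESeq2 in each setting shown, at -0.71 to -0.35, and by neither limma voom nor edgeR, and no fit shown called Cd4 or Cd8b1.

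Ratios between the genes within a library do not depend on how libraries are scaled. The ratio of Cd8a to Cd8b1 fragments was 1.40 and 1.45 in WT and 0.995 and 1.18 in cKO. Every cKO ratio was below every WT ratio. The log2 ratio was lower in cKO by a difference of -0.40, with an exact two-sided permutation p of 0.333 and 0.5 after Benjamini-Hochberg adjustment over 3 ratios. With 2 libraries against 2, 0.333 is the smallest p this test can give, so no ratio could pass.

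The ratio of Cd4 to Cd8a fragments was 1.25 and 1.14 in WT and 1.75 and 1.81 in cKO. Every cKO ratio was above every WT ratio. The difference on the log2 scale was 0.58 (exact permutation p = 0.333, adjusted 0.5), and it lay between 0.51 and 0.65 with 1 library left out. The ratio of Cd4 to Cd8b1 was 1.75 and 1.65 in WT and 1.74 and 2.14 in cKO. Here the groups overlapped, and the log2 difference was 0.18 (exact permutation p = 0.667), between 0.03 without cKO replicate 2 and 0.33 without cKO replicate 1. The ratio of Cd4 to the sum of both CD8 genes was 0.728 and 0.673 in WT and 0.872 and 0.981 in cKO.

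**Figure D3:**
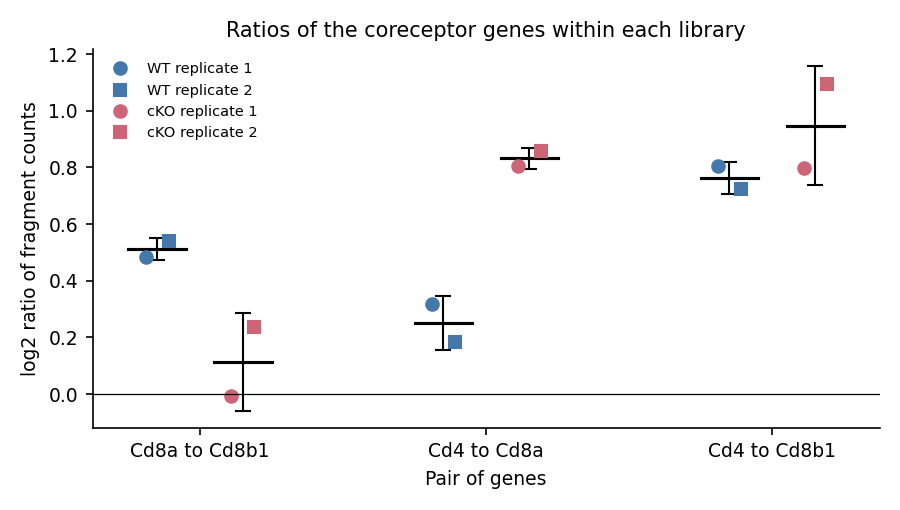
Log2 ratio of fragment counts of each pair of coreceptor genes in each library. Points are libraries, bars the mean and SD over 2 libraries; the groups do not overlap for Cd8a to Cd8b1 (difference -0.40) and Cd4 to Cd8a (0.58) and overlap for Cd4 to Cd8b1.

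The neighbours of the coreceptor genes were examined over 200 kb on each side. Around Cd8a, 6 other genes, Cd8b1 among them, had a mean CPM of at least 1 and none was called by DESeq2, with log2 fold changes from -0.20 to 0.18. Over all genes 3.71% were called in either direction, and 6 genes are too few to differ from that share. The nearest, Rmnd5a, a subunit gene of a ubiquitin ligase complex, lies on the other strand with its 3' end 9.46 kb from the Cd8a span. It was at 488 and 499 CPM in WT and 415 and 445 CPM in cKO. Both cKO values were lower, but the change of -0.20 on the log2 scale (SE 0.0746, DESeq2 adjusted p = 0.116) was not called. The other neighbours were Chmp3 (-0.13), Krcc1 (-0.08), Rnf103 (0.01) and Smyd1 (0.18). Within 200 kb of Cd8b1 lay also Thnsl2, with a mean of 2.20 CPM and a log2 fold change of -0.70 (SE 0.483), for which DESeq2 gave no adjusted p.

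Around Cd4, 22 other genes had a mean CPM of at least 1, and 1 was called, P3h3, a gene of the collagen prolyl 3-hydroxylase family, a share near the 3.71% of all genes called in either direction. P3h3 was at 7.67 and 6.92 CPM in WT and 15.0 and 15.3 CPM in cKO. The groups were well separated, the log2 fold change being 1.05 (DESeq2 adjusted p = 1.27e-05, SE 0.196), and the edgeR adjusted p was 0.0337. Without cKO replicate 2 it was not called (1.03, DESeq2 adjusted p = 0.0859). It lies 6.975 kb beyond the 3' end of Cd4, on the same strand. Between them lies Gpr162, a receptor gene 709 bases from Cd4, at 45.6 and 49.8 CPM in WT and 52.8 and 52.5 CPM in cKO. Its values were somewhat higher in cKO, and the change of 0.14 on the log2 scale (SE 0.111, DESeq2 adjusted p = 0.657) was not called. Lag3, an inhibitory receptor gene on the other side of Cd4, had a log2 fold change of -0.16. The other 19 genes lay between -0.24 and 0.29, with none called. The median of all 22 was -0.0047, against 9e-04 over the 11625 genes.

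**Figure D4:**
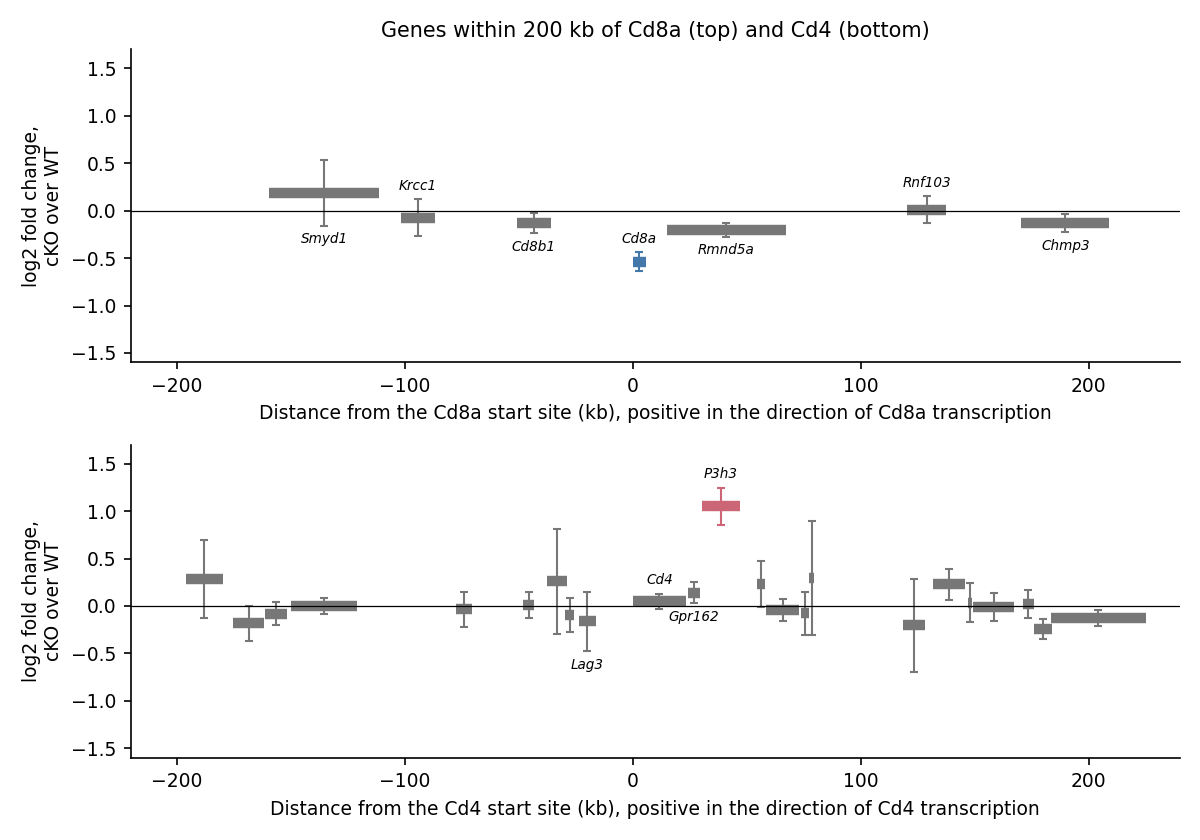
Log2 fold change, cKO over WT, of genes averaging 1 CPM or more within 200 kb of Cd8a (top) and Cd4 (bottom), against distance from the start site in kb along the direction of transcription. Bars span each gene and whiskers are the standard error; Cd8a (-0.54, blue) and P3h3 (1.05, red) were the called genes, and only the nearest genes are named around Cd4.

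Transcription factors and chromatin proteins known to act on the coreceptor genes were examined as a list of 27 genes, all with a mean CPM of at least 1. Of these, 3 were called as increased and 1 as decreased, with a median log2 fold change of 0.06. In either direction 3.71% of all genes were called. The share was 7.41% of genes averaging 100 CPM or more, as most of the 27 did. Runx3, the factor that silences Cd4 and sustains Cd8 in the CD8 lineage, was at 42.5 and 43.0 CPM in WT and 57.9 and 56.5 CPM in cKO. Its cKO values were higher in both libraries, at a log2 fold change of 0.42 (DESeq2 adjusted p = 0.00472, edgeR 0.103). Tox, the HMG-box factor needed for the CD4 lineage, was at 683 and 728 CPM in WT and 992 and 868 CPM in cKO (0.39, DESeq2 adjusted p = 1.41e-04, edgeR 0.108). Myb, which acts upstream of Gata3 in the CD4 lineage, was at 579 and 584 CPM in WT and 807 and 844 CPM in cKO. It is the regulator that both tests called (0.50, DESeq2 adjusted p = 3.91e-10, edgeR 0.0322), and DESeq2 called it with each library left out. Tox lost its call without cKO replicate 1 (DESeq2 adjusted p = 0.307), and Runx3 lost it with each library left out (0.0800 to 0.417).

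Tcf7, encoding TCF-1, was the decreased regulator, at 4019 and 4236 CPM in WT and 3679 and 2919 CPM in cKO (log2 fold change -0.33, DESeq2 adjusted p = 0.0174, edgeR 0.253). Its cKO values were both lower but far apart, and among the fits with a library left out it was called in the one without cKO replicate 1 (-0.49) and in no other (DESeq2 adjusted p from 0.900 to 0.991). Tcf12 had a DESeq2 adjusted p of 0.0160 at a log2 fold change of 0.23, under the fold criterion. Zbtb7b, which encodes the CD4 lineage factor ThPOK, was low, at 16.4 and 17.8 CPM in WT and 17.5 and 9.86 CPM in cKO (-0.33, DESeq2 adjusted p = 0.586). Runx1, the RUNX factor that restrains Cd4 at earlier stages, had a log2 fold change of 0.08, and its partner Cbfb one of 0.15. Lef1 (0.11), Gata3 (0.06), Bcl11b (0.20), Patz1 (-0.06) and Satb1 (-0.06) were not called.

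Of 20 genes whose proteins signal with the coreceptors, 2 were called as increased and none as decreased. Their median log2 fold change was -0.01. In either direction 3.71% of all genes were called, and 7.41% of genes averaging 100 CPM or more, as most of the 20 did. Lck, the kinase that both coreceptors bind, was at 307 and 328 CPM in WT and 392 and 388 CPM in cKO. Both cKO libraries were higher, by 0.29 on the log2 scale (SE 0.0754; DESeq2 adjusted p = 0.00478, edgeR 0.124). It was called without WT replicate 2 but not with any other library left out (DESeq2 adjusted p from 0.261 to 0.459). The Cre transgene of the cKO mice is driven by the proximal Lck promoter, and whether its transcript adds fragments to Lck was not tested. Ptpn22, a phosphatase that acts on LCK, was at 244 and 234 CPM in WT and 297 and 320 CPM in cKO (0.36, DESeq2 adjusted p = 3.72e-04, edgeR 0.0932), and it was not called without cKO replicate 2 (0.30, DESeq2 adjusted p = 0.416). Pag1, an adaptor that recruits CSK, had a DESeq2 adjusted p of 0.0453 at 0.22, under the fold criterion. Unc119, an activator of LCK, had the largest fall in value of the list, -0.59 (SE 0.378, DESeq2 adjusted p = 0.522), at 4.36 and 2.90 CPM in WT and 2.32 and 2.49 CPM in cKO.

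**Figure D5:**
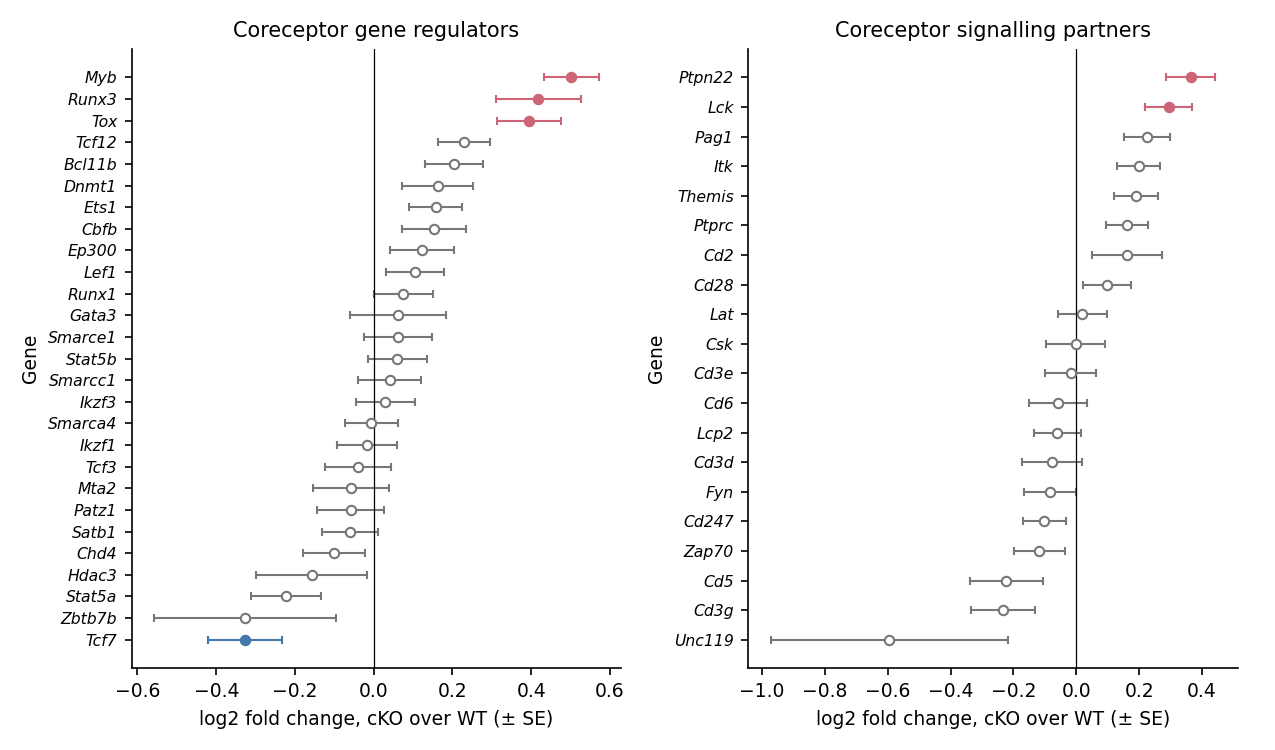
Log2 fold change ± SE, cKO over WT, of 27 regulators of the coreceptor genes (left) and 20 signalling partners (right). Filled points were called by DESeq2: Myb, Runx3 and Tox increased and Tcf7 decreased among the regulators, Lck and Ptpn22 increased among the partners.

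The genes whose levels over the 4 libraries were most like those of each coreceptor gene were found by the Euclidean distance between mean-centred log2 CPM values, over 4054 genes averaging 50 CPM or more. For Cd8a they were Ankrd6 (distance 0.117), Ltb (0.145) and Glis3 (0.152), with log2 fold changes of -0.64, -0.44 and -0.49. Each was called as decreased by DESeq2, which follows from their choice by likeness to Cd8a over the same libraries. For Cd4 they were Dnaaf5 (0.0217), Smad1 (0.0247) and Bend3 (0.0296), and for Cd8b1 Arhgdia (0.0526), Zfp574 (0.0574) and Rgs14 (0.0690), none of them called. Cd8b1 ranked 359th in likeness to Cd8a, and Cd8a 3365th in likeness to Cd8b1, at a distance of 0.435.

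Markers of the cells a CD4 selection could hold were read beside these values. In bulk libraries, fewer cells of a type and less RNA per cell cannot be told apart. The 10 DP markers summed to 7799 and 8406 CPM in WT and 8661 and 8272 CPM in cKO, with Rag1, the recombinase gene of DP cells, called at the edge of the criteria (918 and 1169 CPM in WT, 882 and 802 in cKO, log2 fold change -0.31, DESeq2 adjusted p = 0.0499, edgeR 0.291). The 10 markers of mature single positive cells summed to 663 and 649 CPM in WT and 722 and 617 CPM in cKO. Although these sums overlapped between the groups, most of the 10 genes went down. On the log2 scale their median change was -0.31, and 3 of them rose. Of the 10, Ccr7 fell (-0.34, DESeq2 adjusted p = 0.00714), whereas Il7r (0.36) and Bcl2 (0.64) rose. Bcl2 was called with each library left out and Il7r with none, and Ccr7 was not called without WT replicate 1 (-0.32) or without cKO replicate 2 (-0.23). Rag1 was at -0.49 without WT replicate 1 and at -0.12, not called, without WT replicate 2, and was not called with either cKO library left out. The 5 CD4 lineage markers summed to 96.7 and 104 CPM in WT and 107 and 89.2 CPM in cKO with none called, and of 6 CD8 lineage markers 4 were under 1 CPM (Eomes, Nkg7, Ccl5 and Prf1) and Runx3 was called.

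The 11 markers of earlier and of dividing thymocytes summed to 262 CPM in WT replicate 1, below the 424 CPM of WT replicate 2 and the 534 and 446 CPM of cKO, with Notch3 (1.28, DESeq2 adjusted p = 1.71e-20) called, also with each library left out. Cd74, the gene of the invariant chain that binds MHC class II molecules, fell from 12.9 and 17.5 to 7.55 and 10.6 CPM (-0.75, DESeq2 adjusted p = 0.0331) and lost its call with each library left out. Its list of 10 dendritic cell and macrophage markers summed to 22.3 and 28.3 CPM in WT and to 12.9 and 18.8 CPM in cKO. Both cKO sums lay below both WT sums, and Cd74 itself was the largest part of each. Over the 3 markers that averaged 1 CPM or more the median log2 fold change was -0.69, with Flt3 (0.37) going the other way. The defining markers Itgax, Xcr1, Clec9a, Lyz2, Csf1r, Adgre1 and Batf3 averaged less than 1 CPM. Zbtb16, the factor of innate-like T cells, was at 20.5 and 12.7 CPM in WT and 7.55 and 5.23 CPM in cKO (-1.38, DESeq2 adjusted p = 1.21e-05). It was not called without WT replicate 1 (-1.01, DESeq2 adjusted p = 0.140) or without cKO replicate 2 (-1.14, 0.0558), and its list of 6 markers summed to 40.05 and 28.0 CPM in WT and 22.4 and 17.9 CPM in cKO. B cell markers summed to 12.2 to 14.2 CPM, erythroid markers to 0.013 to 0.729 CPM and thymic stroma markers to 0.704 to 1.38 CPM, with Psmb11 at 0 in every library. The part of these cells in the value of Cd8a was not tested.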

How the data were processed

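TTchem-seq was analysed in 2 WT and 2 cKO libraries. The deposited values are expected counts, fragments per gene over the span from first to last exon, with fractions in 8.61% of values, which the authors made with fastp 0.13.1, STAR 2.7.9a and featureCounts 1.6.1 per the submitters' processing notes (mm10). The methods name STAR gene counts instead, and the labels a poly(A) library where the methods describe 4sU capture, rRNA depletion and stranded libraries. A yeast spike-in is described and was not used here, so changes are relative to all genes. Counts were rounded and tested with DESeq2 1.42.0 (Wald test, default size factors) over all genes, with edgeR 4.0.16 and limma 3.58.1 voom as alternatives in R 4.3.3. CPM used the table totals of 38429786 to 48690591 fragments, and intervals are at 95% under a normal distribution.

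The 3 genes, the gene lists and the tests were chosen with earlier results of these data known. The alternatives named no filter for edgeR and limma voom. Filters from none to a mean CPM of 1 were run, and filterByExpr, which left 13802 genes, was taken for both after the results of the others had been seen. What the other settings gave is stated under how the results depend on the processing. Scripts were tested on simulated data. With simulated spread taken from the trend over genes, the share of false calls was near the threshold, and with spread taken from single genes it was well above it for every tool, so adjusted p-values, that of Cd8a by DESeq2 included, may be too small. Named were the 3 genes, Tox4, neighbours within 200 kb, the 3 nearest in likeness, called genes of the lists, regulators and partners listed by name, with the 3 largest changes of each list. A called marker gene is not reported here.

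Replicate numbers are from the titles, and whether they pair the samples is not known. Deviations of libraries with the same number were not correlated (-0.03 over 11625 genes), which does not settle it. Rn45s, the ribosomal RNA precursor gene, took 2.71% and 2.44% of fragments in WT and cKO replicate 1. In WT and cKO replicate 2 it took 4.30% and 4.05%. Ratios were compared by an exact permutation test.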

Additional observations from a re-analysis of the deposited data

How the results depend on the processing

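DESeq2 called 249 increased and 182 decreased genes. edgeR called 48 and 10 with filterByExpr and limma voom 50 and 11, at 1811 genes with an unadjusted edgeR p under 0.05. With edgeR filters chosen after the data were seen, the counts were 59 and 17 (mean CPM of at least 1), 65 and 17 (the same with full library totals), 46 and 10 (at least 0.1), 38 and 9 (at least 0.1, TMM factors over all genes) and 494 and 344 (none). limma voom gave 57 and 16 (at least 1) and 52 and 17 (at least 0.1, TMM factors over all genes). The prior degrees of freedom of edgeR were 5.31 with filterByExpr, 5.44 at a mean CPM of 1, 5.36 at 0.1 and infinite with no filter, where single genes share 1 trend of spread. Asking for a 1.5-fold change left 106 and 44. With 1 library left out, the lone library being assumed to vary like the other group, the counts ran from 61 to 320 and from 28 to 126, lowest without cKO replicate 2.

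Cd8a was not called by edgeR (-0.54, adjusted p = 0.108, and 0.0887 and 0.119 at -0.54 with the CPM filters alone, 0.0815 with full library totals also, 0.13 with TMM factors over all genes also) or limma voom (-0.53, adjusted p = 0.0998, 0.0847 at a mean CPM of 1, and 0.113 at 0.1 with TMM factors over all genes), and was called by edgeR with no filter (adjusted p = 3.14e-15). Left-out libraries gave -0.71 to -0.35 for Cd8a, -0.058 to 0.16 for Cd4, and -0.28 to 0.024 for Cd8b1. Cd4 was reversed without WT replicate 1 (-0.06), and Cd8b1 without WT replicate 2 (0.02) and without cKO replicate 2 (0.0012). Tox4 lost its call with edgeR (-0.31, adjusted p = 0.153, and 0.116 to 0.171 over the CPM filters with and without these changes), limma voom (-0.31, 0.143, and 0.126 to 0.146), library totals (-0.31, DESeq2 adjusted p = 0.0511), independent filtering off (0.0821) and each library left out (-0.34 to -0.28), and was called by edgeR with no filter (adjusted p = 0.0414). By edgeR with filterByExpr the adjusted p was 0.822 for Cd4 and 0.667 for Cd8b1, and neither was called in any setting. The cause was not tested. The 3 ratios kept their direction in every setting run, that of Cd4 to Cd8b1 between 0.03 and 0.33 with a library left out.

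With the replicate number as a block, DESeq2 called 121 and 72 genes, Cd8a stayed called (-0.53, adjusted p = 6.48e-04) and Tox4 did not (-0.31, adjusted p = 0.361). Whether the replicate numbers pair the samples is not known.

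With 2 libraries a group, the spread of a single gene is poorly known, and tests that share it differently between genes gave different calls for Cd8a. Counting error was small beside this spread, the lowest count of a coreceptor gene being 12917.5 fragments (Cd8b1, cKO replicate 2).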
